A study of Mus musculus with 8 samples.

Results

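The genes described here are 9 transcription factors of heart development, Tbx5, Tbx20, Gata4, Gata6, Nkx2-5, Mef2a, Mef2c, Srf and Hand2, together with Ldb1, a nuclear cofactor of LIM domain proteins. They were selected on the null minus wildtype values of an earlier look at these arrays, Ldb1 for its higher values in null hearts and the factors beside it by name, so that the differences between genotypes given below describe these genes and carry no test. Of the 10 genes 9 had at least 1 probe named by a single symbol, and 7 were measured, meaning a value on 3 or more arrays per genotype, out of 7603 named genes measured in this way. Nkx2-5 had no such probe, the probe of Srf had no value on any array, and Tbx20 had values on only 2 wildtype arrays. The hearts came from neonatal mice of the C57BL background, either wildtype or null for connexin43, the gap junction protein of working heart muscle that Gja1 encodes. Each of 8 arrays, 4 per genotype, compared Cy3-labelled cDNA of 3 pooled hearts with a Cy5-labelled reference shared by all arrays and made from adult C57BL tissues, heart among them. Every value is the log2 of heart signal over reference signal after subtraction of the array's median, and a value of 1 stands for a 2-fold higher signal in neonatal heart than in the reference, relative to that median.

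Heart muscle genes are switched on by a small set of factors that bind next to each other on the same enhancers and promoters. The T-box factors Tbx5 and Tbx20, the zinc finger factors Gata4 and Gata6, the homeodomain factor Nkx2-5 and the basic helix-loop-helix factor Hand2 pattern the chambers, while the MADS box factors Mef2a, Mef2c and Srf drive contractile genes. Loss of single members causes malformations of the septa, the right ventricle or the outflow tract in mice. Ldb1 binds no DNA itself: it dimerises and links LIM homeodomain and LIM-only proteins, with GATA and E-box binding factors, into complexes that join distant enhancers to promoters.

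Upstream sequences of 7 of the 10 genes, in 11 windows of 250 bases before a transcription start, were found in the RefSeq promoter table of build GRCm38.p6. The windows printed here are those of genes measured on the arrays that hold a word bound by another factor of the set, a GATA word (AGATAA) or a T-box word (AGGTGT), on either strand. Capitals mark these words and the shorter Nkx2-5 core (AAGTG), and the sequences run 5′ to 3′ towards the start.
Ldb1, chr19:46037071-46037320, minus strand: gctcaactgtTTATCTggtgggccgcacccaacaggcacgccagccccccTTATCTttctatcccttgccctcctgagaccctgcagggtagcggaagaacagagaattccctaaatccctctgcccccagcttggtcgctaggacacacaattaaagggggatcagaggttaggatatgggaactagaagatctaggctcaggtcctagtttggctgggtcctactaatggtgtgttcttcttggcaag
Hand2, chr8:57320733-57320982, plus strand: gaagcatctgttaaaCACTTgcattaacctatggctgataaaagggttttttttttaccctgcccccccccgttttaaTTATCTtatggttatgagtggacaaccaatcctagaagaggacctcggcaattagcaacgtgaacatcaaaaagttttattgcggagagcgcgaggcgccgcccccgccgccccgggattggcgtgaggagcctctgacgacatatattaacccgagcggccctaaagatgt
Mef2c, chr13:83523406-83523655, plus strand: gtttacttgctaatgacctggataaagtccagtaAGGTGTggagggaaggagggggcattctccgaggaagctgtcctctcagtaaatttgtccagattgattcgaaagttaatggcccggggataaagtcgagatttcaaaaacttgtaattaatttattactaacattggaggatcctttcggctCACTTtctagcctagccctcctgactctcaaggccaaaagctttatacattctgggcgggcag
The GATA word occurs 2 times in 1 of the 3 windows of Ldb1 and 1 time in that of Hand2, and it was found in 9.99% of all 32851 windows of the table. The T-box word occurs in 1 of the 3 windows of Mef2c and in 11.8% of all windows, and the Nkx2-5 core in 40.7%. The palindromic E-box CAGCTG, present in 13.0% of all windows, and the MEF2 consensus, present in 2.92%, were in none of the 11. The CArG box of Srf, present in 1.47% of all windows, occurred 2 times in the window of Srf itself and in no other of the 11. These matches describe letters and were not set against the array values.

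Ratios were read with heart as the numerator, since 10 measured genes of heart muscle had a median of 0.67 to 1.05 on the 8 arrays and 5 genes of other adult tissues one of -3.33 to -2.26. The check of the deleted gene separated the genotypes: Gja1 fell from 1.03 ± 0.21 in wildtype to 0.08 ± 0.25 in null hearts (SD, n = 4 each, exact two-sided permutation p = 0.0286, the smallest this design allows), on 1 probe whose place relative to the deletion is not known here. Across 11804 features the limma fit of null minus wildtype called 0.00% as higher and 0.00% as lower at an adjusted p of 0.05, while at an unadjusted p under 0.05 it had 2.10% higher and 6.13% lower, 972 features in all. Even Gja1 was not called (limma adjusted p = 0.340), so that a list with 0 called is no result about that list. Wildtype replicate 1 had a value at 45.2% of the spots, against 62.3% to 83.4% on the other arrays. The number of arrays limits the precision, and the median standard error of a difference was 0.14. Because whole hearts were pooled, fewer cells of a type and less RNA per cell cannot be told apart in any value below.

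The factors were covered unevenly by the array. Their 21 probes, cDNA clones named below by a letter per gene, included 4 for Gata4 and Mef2c, 3 for Gata6 and Hand2, 2 for Ldb1 and Mef2a, and 1 for Tbx5, Tbx20 and Srf. Of these, 13 reached that number of arrays, 61.9% against 56.8% of all probes. Wildtype replicate 1 gave a value for 11 of the 21 probes, and the other arrays for 14 to 18. Tbx5 therefore has 3 wildtype values, and in Gata4, Gata6 and Ldb1 1 wildtype value rests on a single probe, adjusted for the offset between the probes of that gene.

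Against the adult reference, 6 of the 7 measured genes had higher values in neonatal heart and 1, Mef2c, did not. The comparison was the mean of both genotypes against the array median, tested in limma over all features, of which 28.2% were called higher and 27.4% lower at an adjusted p of 0.05. Both dyes kept their place on all arrays, so that dye bias remains in these levels, and a ratio compares a gene with itself in the reference and gives no order of transcript abundance. Gata6 stood highest, at 1.41 (SE 0.07, 2.66-fold, adjusted p = 1.24e-07), above 0 on 8 of 8 arrays and never below the 98.9th percentile of an array's features. Mef2a followed at 0.78 (SE 0.12, 1.72-fold, adjusted p = 0.00033), above 0 on 7 of 8 arrays. Gata4 had 0.49 (SE 0.10, adjusted p = 0.00246), Ldb1 0.35 (SE 0.05, adjusted p = 0.000191), Hand2 0.34 (SE 0.07, adjusted p = 0.00188) and Tbx5 0.33 (SE 0.07, adjusted p = 0.00244). Each of these was above 0 on every array that measured it, 8 arrays for Gata4, Ldb1 and Hand2 and 7 for Tbx5. Mef2c lay at -0.02 (SE 0.05, adjusted p = 0.699), above 0 on 4 of 8 arrays and between the 35.2nd and 56.6th percentile.

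This order depends on the probes used, since probes of 1 gene differed by more than most of its steps: those of Ldb1 had levels of 0.07 and 0.64, and those of Gata4 0.10 and 0.91, the latter above Mef2a. With the probes as used, the ratio of Gata6 exceeded that of Mef2a on 8 of 8 arrays, by 0.63 ± 0.42 within an array (SD). Probe A of Mef2a, outside the filter, was however above Gata6 on 3 of the 5 arrays where it had a value. The ratio of Tbx5 exceeded that of Mef2c on 7 of 7 arrays, by 0.35 ± 0.20. Between Gata4, Ldb1, Hand2 and Tbx5 each step was smaller than its SD: Gata4 was above Ldb1 on 4 of 8 arrays, Ldb1 above Hand2 on 3 of 8 and Hand2 above Tbx5 on 4 of 7. Mef2a was above Gata4 on 7 of 8 arrays, with a mean step of 0.29 that was also below its SD of 0.47. Without centring of the arrays the levels of Tbx5 (0.12, adjusted p = 0.243), Hand2 (0.18, adjusted p = 0.0952) and Ldb1 (0.19, adjusted p = 0.0513) no longer passed in limma, and Mef2c passed as lower (-0.18, adjusted p = 0.0449). Those of Gata6, Mef2a and Gata4 passed without centring as well.

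**Figure D1:**
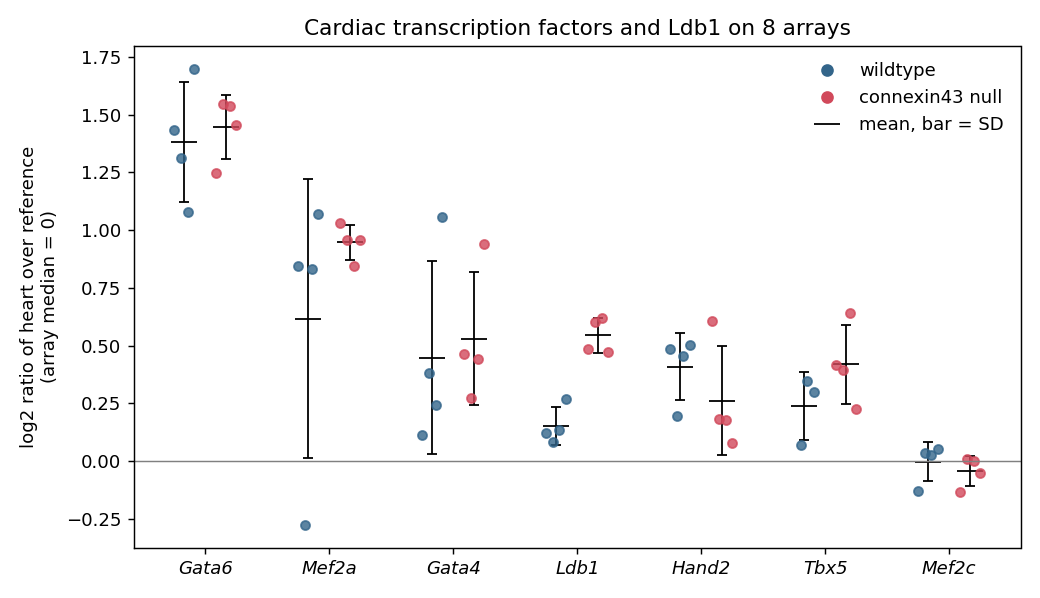
Log2 ratio of heart over reference (y axis, array median at 0) of the 7 measured genes, ordered by mean level. Points are the 4 wildtype and 4 null pools (3 wildtype for Tbx5), with mean and SD; the null values of Ldb1, 0.47 to 0.62, lie above its wildtype values, 0.08 to 0.27, and the genotypes overlap for the other 6 genes.

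Ldb1, the cofactor, had the largest difference of the set with all arrays. That of Mef2a was larger without wildtype replicate 1, 3 or 4, with array weights (0.55 against 0.41) and with the limit lowered to 2 arrays per genotype (0.44 against 0.39). Its wildtype arrays read 0.12, 0.08, 0.13 and 0.27 and its null arrays 0.49, 0.60, 0.62 and 0.47. Every null array was above every wildtype array. The means were 0.15 ± 0.08 and 0.55 ± 0.08 (SD, n = 4 each), a log2 difference of 0.39 (SE 0.10), or 1.31-fold. Of all features 2.00% had every null value above every wildtype value and 5.54% the reverse. Ldb1 was listed for this difference, and nothing is read from its place among them. The spread of Ldb1, averaged over 2 probes, was small within a genotype: 8.69% of features had a lower SD in wildtype and 14.7% in null hearts. Both the averaging and the choice of Ldb1 for its difference can lower this SD. Alone, probe A had an SD of 0.22 in wildtype and 0.02 in null hearts, and probe B 0.09 and 0.14. The wildtype value of replicate 2 rests on probe B alone.

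Both probes of Ldb1 had higher values in null hearts, at different levels. Probe A read -0.33, -0.15 and 0.11 on wildtype replicates 1, 3 and 4, had no value on replicate 2, and read 0.28, 0.28, 0.27 and 0.23 on the null arrays. Probe B read 0.58, 0.37, 0.42 and 0.43 on the wildtype and 0.69, 0.92, 0.96 and 0.71 on the null arrays. The genotypes were apart on each probe, with differences of 0.39 (SE 0.13) for probe A and 0.37 (SE 0.11) for probe B. Probe A had only 3 wildtype values, and the share of all single probes apart in this way is not given here. Since Ldb1 was chosen for this difference, the likeness of its probes adds no support to it. Against the reference only probe B passed (0.64, adjusted p = 5.61e-06 in limma), while probe A had 0.07 (adjusted p = 0.390). With any 1 array left out the difference stayed between 0.37 and 0.44. Without centring it was 0.23, and the genotypes then overlapped, since wildtype replicate 1 read 0.33 and null replicate 1 0.15.

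Ldb1 complexes are best known from blood and endothelial cells. Of 11 erythroid markers 8 were measured, and their mean level ranged from -0.60 to -0.03 on the wildtype and from -0.26 to -0.05 on the null arrays, with a median difference of 0.20. Of 10 endothelial and endocardial markers 7 were measured, with mean levels of 0.40 to 0.91 on the wildtype and 0.64 to 0.79 on the null arrays and a median difference of 0.18. In null hearts 6 of the 8 erythroid and 6 of the 7 endothelial markers were higher, beside 40.9% of all features. Mean levels of both marker sets overlapped between genotypes, and their part in the value of Ldb1 was not tested. Genes of lung epithelium, a tissue of the reference, were further below it on the null arrays: the mean of Sftpc, Scgb1a1 and Cbr2, 3 of 5 listed, was -2.48 to -1.85 in wildtype and -3.18 to -2.82 in null hearts. These 3 genes were named after their values were seen. Each had every null value below the wildtype values, as in 5.54% of all features. Their part in the value of Ldb1 was not tested either.

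**Figure D2:**
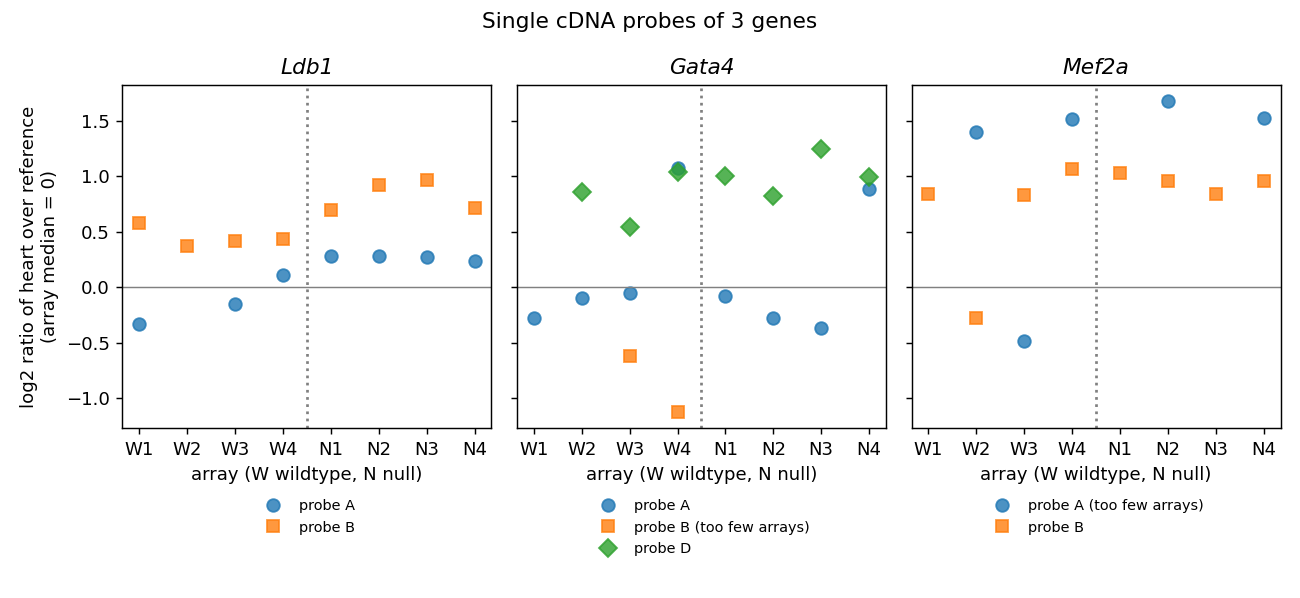
Log2 ratio of heart over reference (y axis) of every probe with a value for Ldb1, Gata4 and Mef2a, on wildtype arrays W1 to W4 and null arrays N1 to N4. Probe B of Ldb1 reads above probe A on every array with both, Gata4 probe A stands at 1.07 and 0.89 on the arrays numbered 4 and below 0 elsewhere, and each Mef2a probe falls below 0 on 1 wildtype array.

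Gata6, a zinc finger factor of the heart and outflow tract, had overlapping values in both genotypes. Wildtype arrays read 1.43 (from probe C alone), 1.31, 1.08 and 1.70 and null arrays 1.25, 1.55, 1.54 and 1.46. The means were 1.38 ± 0.26 and 1.45 ± 0.14 (SD, n = 4 each), a difference of 0.07 (SE 0.14). Probe A gave 0.20 (SE 0.19) over 3 wildtype and 4 null arrays, and probe C -0.04 (SE 0.13). Probe B, which passed on too few arrays, read 1.38, 0.96 and 1.72 on wildtype replicates 1, 3 and 4 and 1.20 on null replicate 4. All 3 probes thus read well above the array median wherever they had a value.

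Gata4, the partner of Tbx5 and Nkx2-5 at many heart promoters, gave values that depended on the probe. Averaged over probes A and D, with replicate 1 of wildtype resting on probe A alone, wildtype arrays read 0.11, 0.38, 0.24 and 1.06 and null arrays 0.46, 0.27, 0.44 and 0.94, which overlap. The difference was 0.08 (SE 0.21). Probe D was even, at 0.86, 0.54 and 1.04 on wildtype replicates 2 to 4 and 1.01, 0.82, 1.25 and 0.99 on the null arrays, a difference of 0.21 (SE 0.16). Probe A read -0.27, -0.09, -0.05 and 1.07 on the wildtype and -0.08, -0.28, -0.37 and 0.89 on the null arrays. Replicate 4 of each genotype was thus 0.97 or more above the other 3 arrays of its group, a pattern singled out after the values were seen. Among 10320 probes with a value on all arrays, 487 had replicate 4 as the highest array of both genotypes. Of these 1, this probe itself, had a gap of that size in both. The limit was the gap of this probe, and only replicate number 4 was searched. The difference on probe A was -0.12 (SE 0.32), and its level, 0.10, did not pass against the reference (limma adjusted p = 0.608), while that of probe D did (0.91, adjusted p = 7.3e-06). Requiring a value on all 4 arrays per genotype left probe A only, and the level of Gata4 then did not pass. The averaged difference was 0.26 without wildtype replicate 4 and -0.07 without null replicate 4. Probe B read -0.62 and -1.13 on wildtype replicates 3 and 4 and had no value on a null array, and probe C had none at all.

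Mef2a and Mef2c, MADS box factors of muscle genes, differed in how steady their values were. Mef2a, measured by probe B, read 0.85, -0.28, 0.83 and 1.07 on the wildtype and 1.03, 0.96, 0.85 and 0.96 on the null arrays. Wildtype replicate 2 stood apart, the remaining wildtype values overlapped with the null values, and the difference of 0.33 (SE 0.24) became 0.03 without that array. Without wildtype replicate 4 it was 0.48 and every null value lay above the wildtype values, but barely. The highest wildtype value was then 0.845209 and the lowest null value 0.845378. The share of all features apart in this way with 1 array left out was not computed. The SD was 0.61 in wildtype, above that of 98.0% of features, and 0.08 in null hearts. Probe A of Mef2a had too few null values to be used. It read 1.41, -0.48 and 1.52 on wildtype replicates 2, 3 and 4 and 1.69 and 1.53 on null replicates 2 and 4. The low wildtype array was therefore replicate 2 on one probe and replicate 3 on the other, and on each of these arrays the other probe read 0.83 or higher.

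Averaged over 4 probes, Mef2c had the lowest SD of the factors and lay near the array median throughout. Averaging can lower the SD: the single probes of Mef2c had wildtype SDs of 0.09 to 0.19, beside 0.15 for Hand2 and Tbx5 on 1 probe each. Its wildtype arrays read -0.13, 0.04, 0.03 and 0.05 and its null arrays -0.13, 0.01, -0.00088 and -0.05, with a difference of -0.04 (SE 0.10). The genotypes overlapped, and wildtype replicate 1 and null replicate 1 were the lowest of their groups. Without wildtype replicate 1 the difference was -0.08 and every null value lay below the wildtype values, and without null replicate 1 it was -0.01. The share of all features that come apart with 1 array left out was not computed. The 4 probes gave differences of -0.05, -0.10, 0.01 and -0.02, each smaller than its SE of 0.11 to 0.13. Their levels against the reference lay between -0.17 and 0.12, and only probe C, at -0.17, passed in limma (adjusted p = 0.0451, as lower).

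Hand2, a factor of the right ventricle, had lower values in null hearts on 3 of 4 arrays. Probe C read 0.49, 0.19, 0.45 and 0.50 on the wildtype and 0.61, 0.18, 0.18 and 0.08 on the null arrays. The means were 0.41 ± 0.15 and 0.26 ± 0.24 (SD, n = 4 each), a difference of -0.15 (SE 0.14). Null replicate 1 was the highest of all 8 arrays, and without it the difference was -0.26. The overlap was then lost, since that array alone had made it. How many of all features lose their overlap with 1 array left out was not computed. Probe B, outside the filter, read -0.04 on wildtype replicate 4 and -0.43, -0.88 and -0.24 on null replicates 2 to 4. Probe A had 1 value per genotype, 0.19 on wildtype replicate 3 and -0.07 on null replicate 2.

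The T-box factors were measured by few values. Tbx5, which sets the identity of the left ventricle and the atria, read 0.07, 0.35 and 0.30 on wildtype replicates 2 to 4 and 0.42, 0.39, 0.64 and 0.22 on the null arrays, on 1 probe. The means were 0.24 ± 0.15 (SD, n = 3) and 0.42 ± 0.17 (SD, n = 4), a difference of 0.18 (SE 0.13). Null replicate 4 fell within the wildtype range and the other 3 null arrays above it, so that without null replicate 4 the difference was 0.25. Tbx20, a T-box repressor and activator of the chambers, read 0.24 and 0.97 on wildtype replicates 2 and 4 and -0.20, 0.28, 0.65 and 0.66 on the null arrays. With the limit lowered to 2 arrays per genotype its difference was -0.26 (SE 0.28) and its level 0.48.

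**Figure D3:**
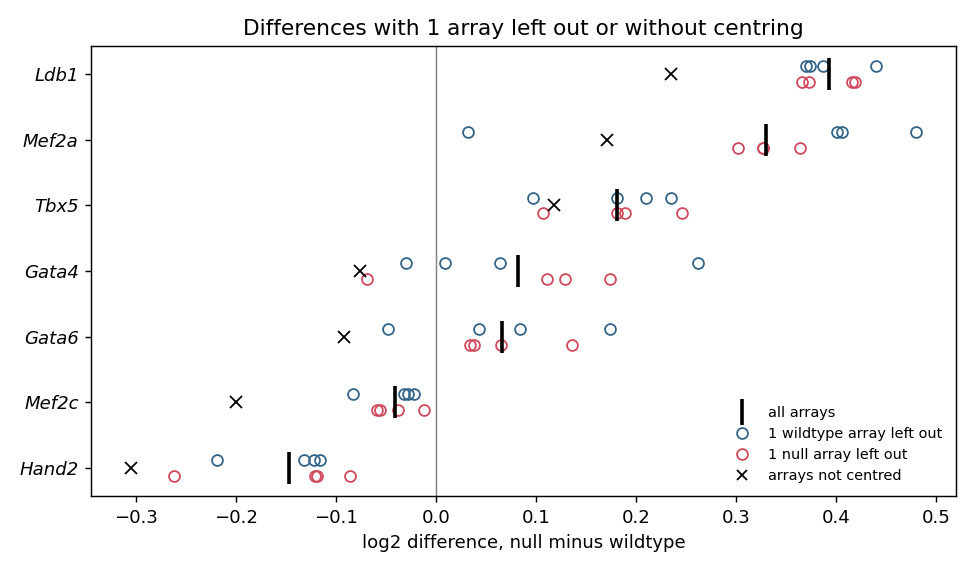
Log2 difference of null minus wildtype (x axis) of each measured gene with all arrays (bar), with 1 array left out (circles) and without centring of the arrays (cross). Ldb1, which was chosen for its difference, stays between 0.37 and 0.44 with any array left out. Mef2a falls to 0.03 without wildtype replicate 2, and Gata4 and Gata6 change sign.

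Which wildtype array was the highest depended on the centring. With it, wildtype replicate 4 was the highest wildtype array for 6 of the 7 genes, Tbx5 excepted, and wildtype replicate 2 the lowest for Tbx5, Mef2a, Hand2 and Ldb1. Without centring, wildtype replicate 1 was the highest for Gata6, Mef2a, Mef2c, Hand2 and Ldb1, and replicate 4 for Tbx5 and Gata4. Among null arrays, centred, each was the highest for 1 or 2 genes. Wildtype replicate 4 also had the most spots with a value, 83.4%, and the part of this in its ranks was not tested.

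Genes of LIM proteins and of Ldb1 complexes had differences between genotypes on both sides of 0. Of 31 genes listed for LIM proteins and Ldb1 complexes 14 had a probe and 9 were measured, of which 3 had higher and 6 lower values in null hearts. Their median difference was -0.02, against -0.04 for all features, of which 40.9% were above 0, and 0 of the 9 passed, as for the whole table in limma. Lmo2, the LIM-only bridge of blood cell complexes, had 0.01 (SE 0.12). Ssbp3, which binds Ldb1 and stabilises it, had 0.01 (SE 0.10), and Rlim, a ubiquitin ligase that targets Ldb1, -0.06 (SE 0.17). The E-box binding factors Tcf3 and Tcf12 had -0.02 (SE 0.10) and -0.00090 (SE 0.12), and Cbfa2t3, a corepressor of these complexes, -0.21 (SE 0.11).

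Larger values in this list came with wide spreads. Gata2, a blood and endothelial factor, read 1.25, 0.06, -0.18 and 0.11 on the wildtype and 0.01, -0.11, -0.20 and 0.03 on the null arrays. Its difference of -0.38 (SE 0.26) thus rested on wildtype replicate 1. Lmo7, a LIM domain protein of cell junctions, read 0.60, 0.83, 0.09 and 1.46 in wildtype and 1.39, 1.44, 1.15 and 0.94 in null hearts, a difference of 0.49 (SE 0.24). The LIM homeodomain gene Lhx1 had -0.38 (SE 0.18) with 3 wildtype values. None of the 9 genes had genotypes that did not overlap.

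**Figure D4:**
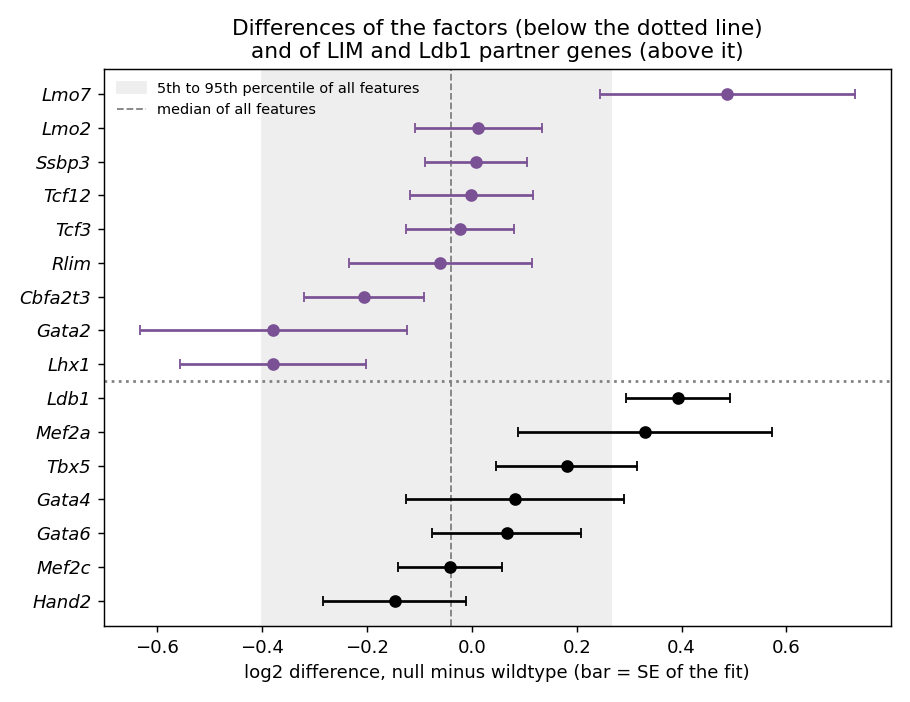
Log2 difference of null minus wildtype with its SE (x axis) for the 7 measured genes, below the dotted line, and for 9 genes listed for LIM proteins and Ldb1 complexes, above it. The grey band spans the 5th to 95th percentile of all features, -0.40 to 0.27, for scale. Values run from -0.15 for Hand2 to 0.39 for Ldb1, which was chosen for it, and from -0.38 for Lhx1 to 0.49 for Lmo7 among the 9 listed genes.

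Other cardiac transcription factors and cofactors had differences between genotypes on both sides of 0. Of 72 listed genes 24 were measured, 10 with higher and 14 with lower values in null hearts. Their median difference was -0.02 and 0 were called, as in the whole table. Against the reference 11 of the 24 were called higher and 1 lower, beside 28.2% and 27.4% of all features. The Iroquois factors Irx1 and Irx3 had differences of -0.24 (SE 0.20) and -0.11 (SE 0.11), and the Notch target Heyl -0.02 (SE 0.14). Yap1 and Wwtr1, the coactivators at the end of the Hippo pathway, had 0.21 (SE 0.14) and -0.16 (SE 0.16). In 2 of the 24 genes, picked out for this after their values were seen, the genotypes did not overlap, 1 with null above, as in 2.00% of all features, and 1 with null below, as in 5.54%. Smyd1, a muscle histone methyltransferase, read 0.97 to 1.21 in wildtype and 1.23 to 1.62 in null hearts, and Klf15, a glucocorticoid-induced repressor of heart growth, 0.05 to 0.54 and -0.27 to -0.12.

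Genes that these factors are known to drive had a median difference near that of all features. Of 29 heart muscle targets 10 were measured, 3 with higher and 7 with lower values, a median difference of -0.07 and, as in the whole table, 0 called. The natriuretic peptide gene Nppa, a target of Gata4, Nkx2-5 and Tbx5, read 1.45, 0.10, 1.41 and 1.16 in wildtype and 0.63, 1.57, 1.53 and 1.73 in null hearts, which overlap. Nppb had a difference of -0.05 (SE 0.11), troponin C gene Tnnc1 -0.0015 (SE 0.13), and the atrial light chain genes Myl7 and Myl4 -0.21 (SE 0.24) and -0.09 (SE 0.12). Against the reference 9 of the 10 were called higher, beside 28.2% of all features. In Pln, the brake of the calcium pump, chosen here after its values were seen, the null values, 0.69 to 0.86, lay below the wildtype values, 0.91 to 1.09, as in 5.54% of all features.

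With Srf itself not measured, its targets in smooth muscle and in the early growth response give values downstream of it. Of 20 listed genes 10 were measured, 4 with higher and 6 with lower values, a median difference of -0.03 and, as in the whole table, 0 called. Calponin gene Cnn1 had -0.10 (SE 0.15), the caldesmon gene Cald1 0.21 (SE 0.14), tropomyosin gene Tpm1 0.01 (SE 0.16), vinculin gene Vcl -0.12 (SE 0.11) and Fos -0.03 (SE 0.11). Genotypes did not overlap for 1 of them, the survival factor Mcl1, with 0.14 to 0.57 in wildtype and -0.20 to 0.11 in null hearts, named after its values were seen. Null values lay below in 5.54% of all features.

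The genes whose values ran most like those of Ldb1 over the 8 arrays were Ets2, an ETS family transcription factor, Ankzf1, the cDNA C85791, the mitotic kinesin gene Kif23 and Arhgef2. Likeness was the root mean square difference of log2 ratios after the mean of each gene was taken off, among 5676 named genes with values on all arrays, and it includes the difference between genotypes. It was 0.075 for Ets2, 0.087 for Ankzf1, 0.089 for C85791, 0.095 for Kif23 and 0.096 for Arhgef2. Ets2 read 0.35, 0.42, 0.34 and 0.44 on the wildtype and 0.60, 0.80, 0.70 and 0.61 on the null arrays. Of the cardiac factors with all 8 values Gata6 was nearest to Ldb1, at 0.22, with 17.3% of genes nearer, and Mef2a farthest, at 0.35, with 74.9% nearer. The measure is not scaled to a gene's spread, so that a gene with even values also scores low. The places of the factors therefore cannot show whether they share a course with Ldb1.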

How the data were processed

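The deposited values are log2 ratios per spot of 8 two-colour cDNA arrays. Scanner, background correction, spot filter and scaling were not given in the sources used here. The log base was read from the values: 8347 differences between spots fitted whole-number ratios under base 2, 269 under base e and 863 under base 10. The direction of the ratio was taken from heart muscle genes. Each array was centred on its median. Of 28704 probes 18511 had 1 symbol in the platform annotation, 937 had several and 9256 are unnamed here, and 18267 of the named ones matched GRCm38.p6 gene numbers. Probes with values on 3 or more arrays per genotype were combined per symbol in an additive model of probe and array, giving 11804 features.

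Null minus wildtype, and the mean of both genotypes against 0, were fitted by lmFit and eBayes (limma 3.58.1, R 4.3.3). P-values were adjusted over all features by Benjamini-Hochberg, with 0.05 as the threshold. The labels say of the replicates only that each array carries a pool of 3 hearts, so that p-values measure the spread between these samples, which may be technical. The fit was tested on simulated data. Members, lists and markers were chosen with earlier results of these data known. Named are all members, Gja1, all measured genes listed for LIM proteins and Ldb1 complexes, the first 5 measured genes of each other list, and the 5 genes most like Ldb1. Smyd1, Klf15, Pln, Mcl1, Afp and the lung genes Sftpc, Scgb1a1 and Cbr2 fall outside this rule and were named after their values were seen. Alternatives covered centring, normalization, the filter, the choice of probe, arrays left out, array weights and a replicate block. Python 3.11.15 with scipy 1.17.1 gave the permutation test, and matplotlib 3.10.9 the plots.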

Additional observations from a re-analysis of the deposited data

Results flagged for a closer look

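In groups of 4 arrays, a value was singled out when its gap to the nearest other value divided by the range of the group exceeded Dixon's critical value. Of 79 groups of genes and probes tested 4 had such a value, and chance alone singles out about 1 in 20. Mef2c read -0.13 on wildtype replicate 1, against 0.03 to 0.05 on the other wildtype arrays. On its probe D the same array read -0.10, against 0.12 to 0.15. Hand2 read 0.19 on wildtype replicate 2, against 0.45 to 0.50 on the others. Gata4 probe A read 1.07 on wildtype replicate 4, against -0.27 to -0.05, and the null array of the same number was also the highest of its group, at 0.89, although that gap did not exceed the limit.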

How the results depend on the processing

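The number of features called for null minus wildtype was 0 in limma under all 18 alternatives, with 689 to 1392 at an unadjusted p under 0.05. Without centring, the features called against the reference changed from 3329 higher and 3238 lower to 1247 higher and 4864 lower, and the median difference of all features from -0.04 to -0.18. With 1 array left out these counts ranged from 2898 to 3469 higher and from 2681 to 3391 lower, and Gja1 from -1.04 to -0.83. The difference of Ldb1 was above 0 under all 20 of its alternatives (0.23 to 0.44), and those of Tbx5 (0.10 to 0.25) and Mef2a (0.03 to 0.55) under all 18 and 19 of theirs, while Hand2 stayed below 0 under 19 (-0.31 to -0.09). Ldb1 was chosen for its higher null values on these same arrays, so that nothing is read from its steady sign. Gata4 (-0.12 to 0.26), Gata6 (-0.09 to 0.20) and Mef2c (-0.20 to 0.01) changed sign. Gata4 was below 0 in 6 of 20 alternatives, Gata6 in 7 of 20, and Mef2c above 0 in 1 of 22. The same-numbered arrays of both genotypes did not deviate together (r of -0.25 to -0.0090 over 8238 features), and with the replicate number as a block the features called stayed at 0, with 723 in place of 972 at an unadjusted p under 0.05, and 2931 higher and 2757 lower against the reference. Spots without a value, most of all on wildtype replicate 1, limit Tbx5, Tbx20, Srf, Gata4 and Mef2a.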

Other observations

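Marker genes of other heart cells gave these values, with no member called in limma between genotypes, as in the whole table. Of 10 fibroblast markers 6 were measured with a median difference of 0.10 and mean levels of 0.32 to 0.62 on the wildtype and 0.53 to 0.67 on the null arrays. In null hearts 5 of these 6 were higher and 1 lower, beside 40.9% of all features higher. Smooth muscle and pericyte markers (4 of 7 measured) had a median difference of 0.06, epicardial markers (3 of 6) -0.09 and macrophage markers (4 of 11) -0.0029. Heart muscle cell markers (3 of 10) had -0.19, with all 3 lower in null hearts, and markers of neural and conduction cells had 0 of 7 measured. Of the liver markers 4 of 7 were measured, with a median difference of -0.16. Afp, named after its values were seen, was the exception, with a difference of 0.32 and every null value above the wildtype values, as in 2.00% of all features.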
